A study of Homo sapiens with 3 samples.

Results

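The 6 genes RCOR3, TBL1XR1, MORF4L1, IRF2BPL, ZFAT and CFL1 carry, at or near their starts, some of the most significant binding peaks of ZNF148 in FaDu cells. They were selected on those ZNF148 q values, so the ZNF148 values at their starts are a description and not a finding. Described here are all summits of the peak lists within 50 kb of a gene start, which came to 61 of 39669 ZNF148 summits and 24 of 21922 p63 summits. Binding was mapped by chromatin immunoprecipitation and sequencing (ChIP-seq), which counts where DNA recovered with an antibody piles up on the genome. FaDu is an established pharyngeal squamous carcinoma line, and all cells were untreated. Of the 3 libraries, 1 was made with an antibody against ZNF148, 1 with an antibody against ΔNp63α and 1 from input DNA without antibody, with the DNA of 3 independent assays named as the source. Each antibody gave 1 peak list, so replicate error cannot be given, no difference was tested, and the read depth is unknown.

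ZNF148, a zinc finger factor, binds C-rich and GC-rich DNA, often close to gene starts. ΔNp63α is the N-terminally shortened form of p63, a relative of p53 that maintains the basal cells of squamous epithelia and acts mostly from enhancers. Among the genes, RCOR3 belongs to the CoREST family, which joins the histone demethylase KDM1A and histone deacetylases in corepressor complexes. TBL1XR1 is a WD40-repeat subunit of nuclear receptor corepressor complexes, and MORF4L1 is a chromodomain protein found in histone acetyltransferase and deacetylase complexes. IRF2BPL is a RING-finger relative of the IRF2-binding proteins, ZFAT is a zinc finger protein with an AT-hook, and CFL1 encodes cofilin, which severs actin filaments.

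The DNA at the starts is shown first, because the peaks the genes were selected on lie there or nearby. Promoter entries of 300 bases, from 250 before to 50 after an annotated start, were taken from RefSeq (GRCh38.p14) for 5 of the 6 genes (not ZFAT), 7 entries in all. The peaks are in hg19, so the positions of these entries cannot be set against the peak positions. Below, the entry listed first for each gene reads 5′ to 3′ on the gene's strand. Capitals mark matches to the C-rich element CCCCNCCCC on either strand, a pattern like those ZNF148 is known to bind.

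RCOR3, chr1:211259116-211259415, plus strand: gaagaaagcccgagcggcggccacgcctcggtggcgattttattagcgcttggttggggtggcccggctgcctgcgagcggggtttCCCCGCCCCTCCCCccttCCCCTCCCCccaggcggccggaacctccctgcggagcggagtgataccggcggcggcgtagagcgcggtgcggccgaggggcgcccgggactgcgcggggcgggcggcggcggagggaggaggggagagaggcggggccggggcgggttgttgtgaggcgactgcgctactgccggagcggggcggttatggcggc

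TBL1XR1, chr3:177197433-177197732, minus strand: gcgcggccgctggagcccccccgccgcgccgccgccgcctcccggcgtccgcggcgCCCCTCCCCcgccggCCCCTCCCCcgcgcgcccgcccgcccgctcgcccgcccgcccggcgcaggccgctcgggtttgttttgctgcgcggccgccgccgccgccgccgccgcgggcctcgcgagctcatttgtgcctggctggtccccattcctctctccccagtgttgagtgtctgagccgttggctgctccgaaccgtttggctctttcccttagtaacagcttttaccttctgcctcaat

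MORF4L1, chr15:78872640-78872939, plus strand: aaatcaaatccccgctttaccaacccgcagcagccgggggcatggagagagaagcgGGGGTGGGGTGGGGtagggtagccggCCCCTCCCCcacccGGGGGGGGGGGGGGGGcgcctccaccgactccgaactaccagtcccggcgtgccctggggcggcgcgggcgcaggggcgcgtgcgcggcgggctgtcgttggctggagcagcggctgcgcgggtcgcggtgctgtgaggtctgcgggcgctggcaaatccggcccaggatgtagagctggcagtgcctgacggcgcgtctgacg

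IRF2BPL, chr14:77028659-77028958, minus strand: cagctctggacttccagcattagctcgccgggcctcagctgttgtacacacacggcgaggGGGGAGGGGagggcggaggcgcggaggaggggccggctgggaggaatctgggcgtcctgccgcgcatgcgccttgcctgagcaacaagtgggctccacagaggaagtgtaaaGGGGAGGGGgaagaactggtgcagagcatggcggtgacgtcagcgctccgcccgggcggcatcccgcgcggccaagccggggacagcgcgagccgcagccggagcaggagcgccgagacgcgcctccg

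CFL1, chr11:65858131-65858430, minus strand: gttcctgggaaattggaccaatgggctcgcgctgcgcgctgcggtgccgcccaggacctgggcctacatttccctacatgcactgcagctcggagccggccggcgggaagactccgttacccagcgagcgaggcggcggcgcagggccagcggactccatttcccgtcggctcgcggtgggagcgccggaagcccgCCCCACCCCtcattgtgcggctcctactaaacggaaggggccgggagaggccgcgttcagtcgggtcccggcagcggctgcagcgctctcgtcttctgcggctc

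All 7 entries held the C-rich element, against 25.2% of the 35114 RefSeq promoter entries of this length. GC-rich promoters hold it more often, and the 7 entries had 65.3 to 75.7% G and C. Of the 8559 entries within that range, 45.8% held it. The MORF4L1 entry had 11 matches, a number reached by 16 of the 35114 entries, but most overlap each other in a single run of G, and together they cover 39 bases. Both entries of RCOR3 had several matches, 3 in the first and 4 in the second, and TBL1XR1 had 2 and 3. IRF2BPL had 2 and CFL1 had 1. Of the 8559 entries of like GC content, 17.9% had 2 or more matches and 6.78% had 3 or more. Every match in the 7 entries lay before the annotated start.

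**Figure D1:**
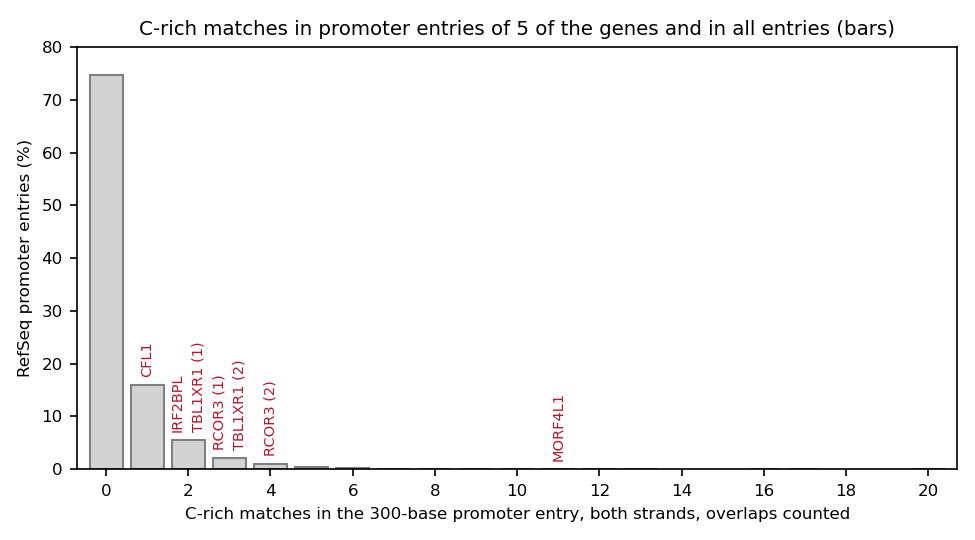
Bars give the percentage of RefSeq promoter entries by their number of C-rich matches (both strands, overlapping matches counted), and names mark the 7 entries of the 5 genes, with the entry number in brackets where a gene has 2. CFL1 has 1 match, IRF2BPL, TBL1XR1 and RCOR3 have 2 to 4, and MORF4L1 has 11.

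The GC box GGGCGG, the site of the Sp1 family, was also in all 7 entries (either strand, 1 to 5 matches, overlap with C-rich matches allowed), against 45.0% of all entries and 83.9% of those of like GC content. The spaced core of a p63 site, in which CATG is followed by CATG after any 6 bases, was in 0 of the 7 entries. It was in 0.373% of all entries and 0.0935% of those of like GC content, so its absence here carries no weight. Among paralogs of the genes, 7 of 9 had entries (not RCOR2 and MORF4L2), and 5 of their 10 entries held the C-rich element. RCOR1 had 4 matches, TBL1X 3 in its second entry, IRF2BP2 2 in its first, and DSTN and TBL1Y 1 each. CFL2 and IRF2BP1 had 0. Of the corepressor partners KDM1A, HDAC1, HDAC2, HDAC3, NCOR1 and GPS2, 3 of 7 entries held it, those of KDM1A with 2 matches and of HDAC1 and HDAC3 with 1 each. These letter matches describe the sequences and do not mark bound sites.

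At IRF2BPL and CFL1, a few high ZNF148 summits stood among many low ones, while each other gene had only 1 to 6 ZNF148 summits. Gene starts are known here to the nearest kb in hg19, so every distance from a start carries an error of up to 0.5 kb, while distances between summits are exact. A minus sign means toward lower coordinates, whatever the gene's strand. Of the 61 ZNF148 summits, 16 lay within 1 kb of a start, a number that holds the peaks the genes were selected on, and 2 of the 24 p63 summits did. A fold enrichment, the authors' ratio of the reads at a summit over the local background, of 50 or more was reached by 10 of the 61 ZNF148 summits, and by 2.48% of all ZNF148 summits. The genes were picked for such peaks, so nothing is read from that difference or from the counts at the starts. Of the 10 most significant ZNF148 peaks of the genome by q value, 7 fell in the windows.

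**Figure D2:**
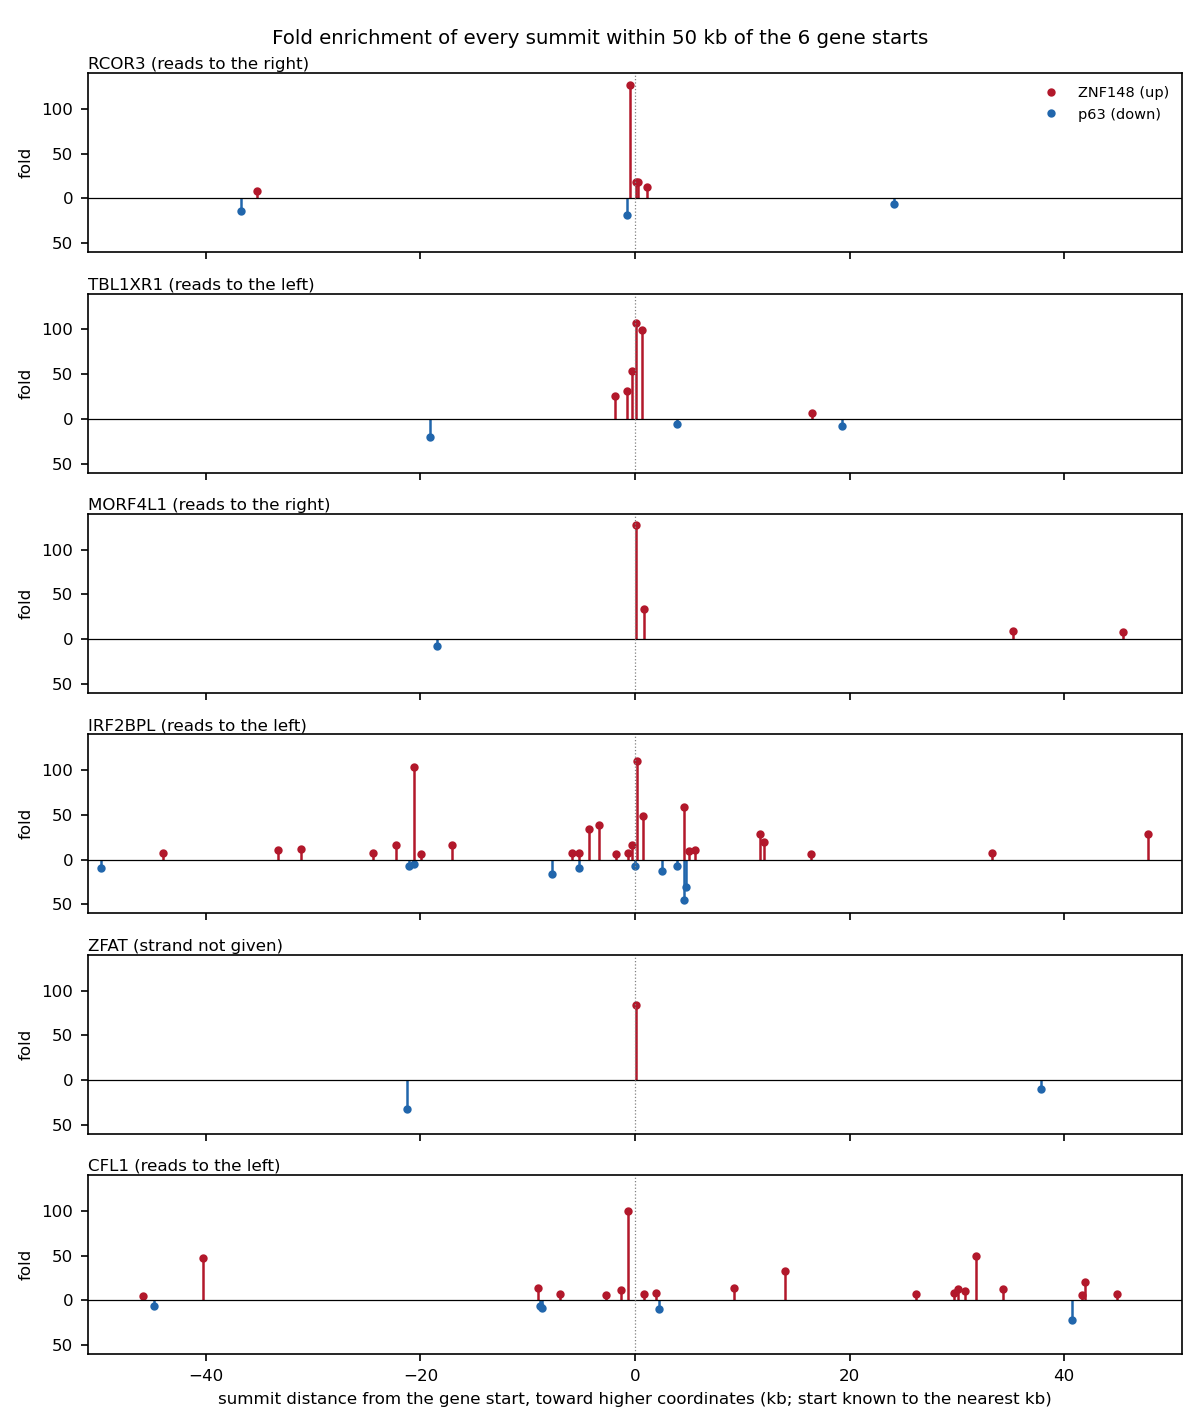
Fold enrichment of every summit (ZNF148 up, p63 down) by its distance in kb from each gene start. ZNF148 reaches a fold of 84.3 to 127.7 beside each start, where the genes were selected on such peaks. The p63 summits, from another library, reach 45.3 at most.

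RCOR3 had 5 ZNF148 summits and 3 p63 summits within 50 kb. Its leading ZNF148 peak (chr1:211432266-211432823) had a fold of 127 and a −log10 q of 388.27, rank 5 of 37883 by q and 2 by fold, with its summit at −0.46 kb. A second ZNF148 peak with summits at 0.08 and 0.31 kb had folds of 18.5 and 18.4, and another at 1.10 kb had a fold of 12.5. The leading summit was thus the only high one at this start. The remaining ZNF148 summit, at −35.21 kb, had a fold of 8.13.

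A p63 peak overlapped the leading RCOR3 peak at its upstream edge. Its summit, at −0.70 kb, lay 240 bp from that of ZNF148 and had a fold of 18.9. The other p63 summits were at −36.71 kb with a fold of 14.4 and at 24.13 kb with a fold of 6.18. Of the 24 p63 summits this is 1 of 2 within 1 kb of a start.

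At TBL1XR1 a single ZNF148 interval of 1866 bp (chr3:176914109-176915974) spanned the start with 4 summits. These had folds of 31.1 at −0.73 kb, 53.3 at −0.26 kb, 107 at 0.10 kb and 99.0 at 0.64 kb, so that 2 of them were about equally high and 2 lower on the same side. The interval ranked 7 by q. Intervals with 3 or more summits made up 0.483% of all ZNF148 intervals, and 4.76% of the most significant 1%. Of the 53 ZNF148 intervals in the windows, 2 were of this kind, at TBL1XR1 and IRF2BPL. Both are among the peaks the genes were selected on, so nothing is read from that count.

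Beyond that interval TBL1XR1 had ZNF148 summits at −1.90 kb with a fold of 25.8 and at 16.49 kb with a fold of 6.75. None of its 3 ZNF148 intervals overlapped a p63 peak. The nearest p63 summit, at 3.93 kb, had a fold of 5.45 and lay 3827 bp from the leading ZNF148 summit. The others were at −19.10 kb with a fold of 20.5 and at 19.28 kb with a fold of 8.49.

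MORF4L1 had the ZNF148 summit with the highest fold of the whole list. Its peak (chr15:79164791-79165292) had a fold of 127.7 and a −log10 q of 388.32, rank 4 by q, with the summit at 0.07 kb. A companion at 0.80 kb had a fold of 33.8. Summits at 35.27 and 45.48 kb had folds of 8.65 and 7.94, and no ZNF148 summit was listed more than 0.5 kb upstream of the start. The side of the leading summit is unresolved, because the start carries an error of up to 0.5 kb. The only p63 summit within 50 kb lay at −18.48 kb with a fold of 7.5 and a −log10 q of 10.4, 18549 bp from the leading ZNF148 summit. The annotation of GRCh38.p14 places 1 other protein-coding gene within 50 kb of this start, CTSH, which encodes a lysosomal protease.

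IRF2BPL stood in the richest stretch, with 25 ZNF148 summits in 21 intervals and 10 p63 summits in 9 intervals. No other protein-coding gene is annotated within 50 kb of its start in GRCh38.p14. The interval at the start (chr14:77494572-77495960, 1389 bp) held ZNF148 summits at −0.28, 0.23 and 0.76 kb with folds of 15.8, 110.03 and 48.4. It ranked 3 by q. A peak of almost the same strength (chr14:77474140-77474830), with a fold of 104 and rank 2, lay at −20.59 kb, on the downstream side and well past the 4166 bp that the gene covers in GRCh38.p14. It is the only leading peak of the 6 genes that lies away from the start. Another strong interval at 4.55 kb, on the upstream side, had a fold of 58.9 with a shoulder of 9.48 at 5.03 kb. The other ZNF148 summits of IRF2BPL had folds of 6.03 to 38.7, the highest being a pair at −4.26 and −3.33 kb with folds of 34.6 and 38.7.

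The p63 summits of IRF2BPL met ZNF148 at 4 places. At 4.55 kb the summits of both proteins fell on the same base, with a fold of 58.9 for ZNF148 and 45.3 for p63, and p63 had another summit in the same interval at 4.79 kb with a fold of 30.6. This was the strongest p63 interval near any of the 6 genes, rank 542 of 21520 by q. At the ZNF148 peak of rank 2 the p63 summit was 27 bp away, but its fold was only 5.27. At the start, the p63 summit at −0.02 kb had a fold of 6.68 and lay 258 bp from the closest ZNF148 summit. At −5.24 kb p63 had a fold of 9.58, and ZNF148, 53 bp away, had 7.90.

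Unpaired p63 summits of IRF2BPL were listed at −49.77 kb (fold 8.82), −21.11 kb (7.66), −7.75 kb (15.8), 2.53 kb (12.4) and 3.94 kb (6.97). Each had a ZNF148 summit at 519 to 5756 bp. The summit at −21.11 kb was the one 519 bp from the ZNF148 peak of rank 2.

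ZFAT had 1 ZNF148 summit within 50 kb, the fewest of the 6 genes. The peak (chr8:135724855-135725443) had a fold of 84.3, rank 38 by fold and 9 by q, with its summit at 0.06 kb. Both p63 summits were distant. One at −21.25 kb had a fold of 32.6 and a −log10 q of 195, and one at 37.88 kb had a fold of 10.4. The nearer lay 21304 bp from the ZNF148 summit.

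CFL1 held the most significant ZNF148 peak of the list (chr11:65625017-65625728), with a −log10 q of 395 and a fold of 100.2, which ranks 11 by fold. Its summit was at −0.67 kb, on the downstream side of the nominal start. Around it lay 19 more ZNF148 summits with folds of 5.0 to 49.1. The higher ones were at 31.82 kb with a fold of 49.1, at −40.27 kb with 47.9 and at 13.98 kb with 32.5. This stretch is gene-dense: in GRCh38.p14, 8 other protein-coding genes lie within 50 kb of the CFL1 start, among them FOSL1, which encodes an AP-1 subunit, and MUS81, which encodes a DNA endonuclease. Which of these starts the distant summits belong to was not analysed here.

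The p63 summits at CFL1 numbered 5. The interval at −8.87 and −8.68 kb, with folds of 6.23 and 8.32, overlapped a ZNF148 peak of fold 13.8 by 19 bp, and their closest summits were 198 bp apart. The summit at 2.27 kb, with a fold of 9.49, was the nearest to the leading ZNF148 summit, at 2934 bp. The last were at −44.80 kb with a fold of 6.26 and at 40.72 kb with a fold of 21.8. The summit at 40.72 kb had a −log10 q of 166.91, rank 1899 of 21520 p63 intervals by q.

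**Figure D3:**
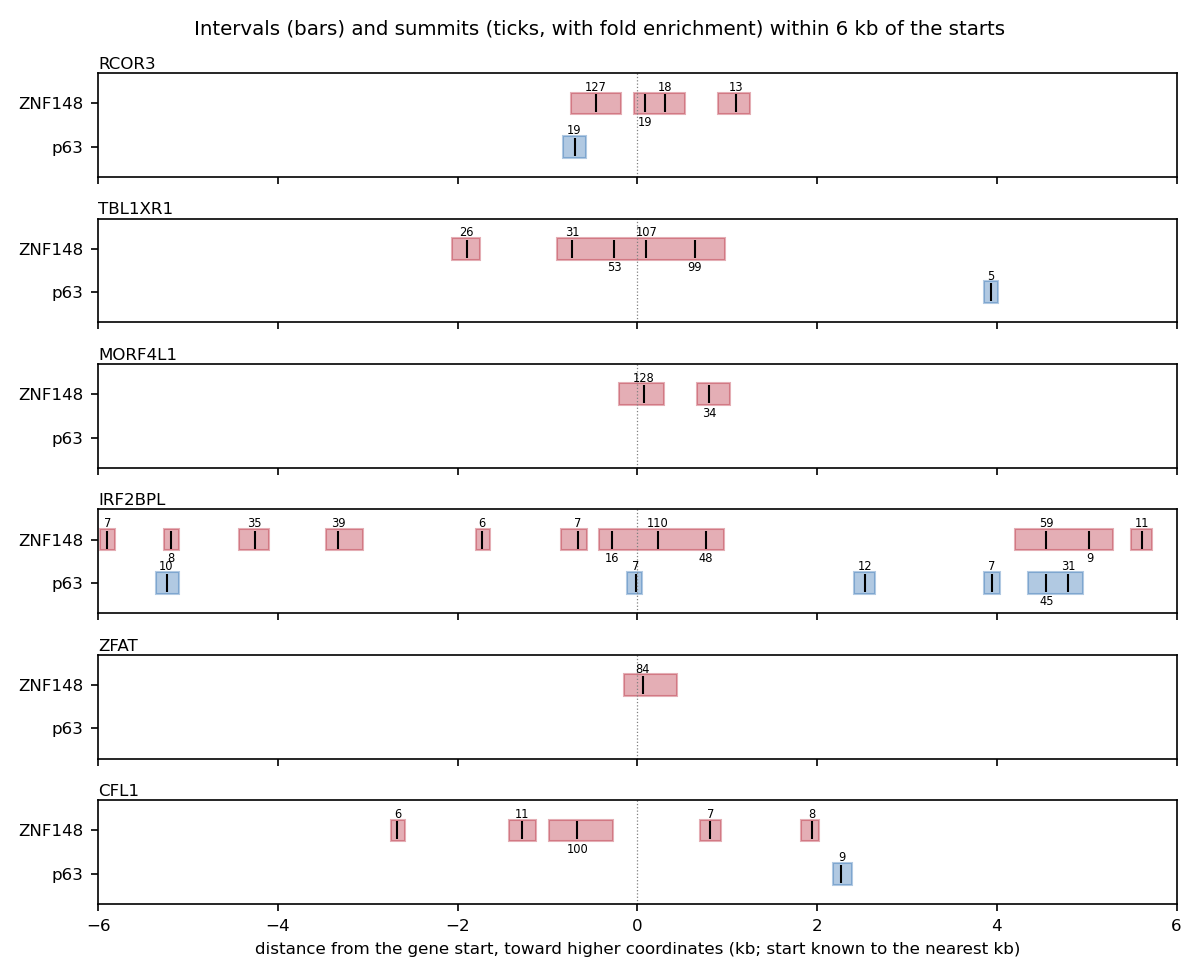
Intervals (bars) and summits (ticks, labelled with the rounded fold enrichment) of ZNF148 above p63 within 6 kb of each start. ZNF148 intervals cover or adjoin all 6 starts, and p63 intervals overlap them at RCOR3 and IRF2BPL.

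Sharing between the proteins near these genes was close to that of the whole lists. Of the 53 ZNF148 intervals in the windows, 6 overlapped a p63 interval by at least 1 bp, or 11.3% (95% exact binomial interval 4.27 to 23.03%, counting error only), against 12.1% of all ZNF148 intervals. From the other side, 6 of the 22 p63 intervals overlapped a ZNF148 interval, or 27.3% (10.7 to 50.2%), against 21.2% of all p63 intervals. Both whole-list values lie inside the binomial intervals. Those treat each peak as independent, and the overlapping pairs include ZNF148 peaks the genes were selected on, so no conclusion is drawn. Of the 6 overlapping pairs, 4 were at IRF2BPL, 1 at RCOR3 and 1 at CFL1, so most of them come from 1 stretch of DNA. Folds of the 2 proteins come from different libraries, whose depth and background enter any comparison between them.

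**Figure D4:**
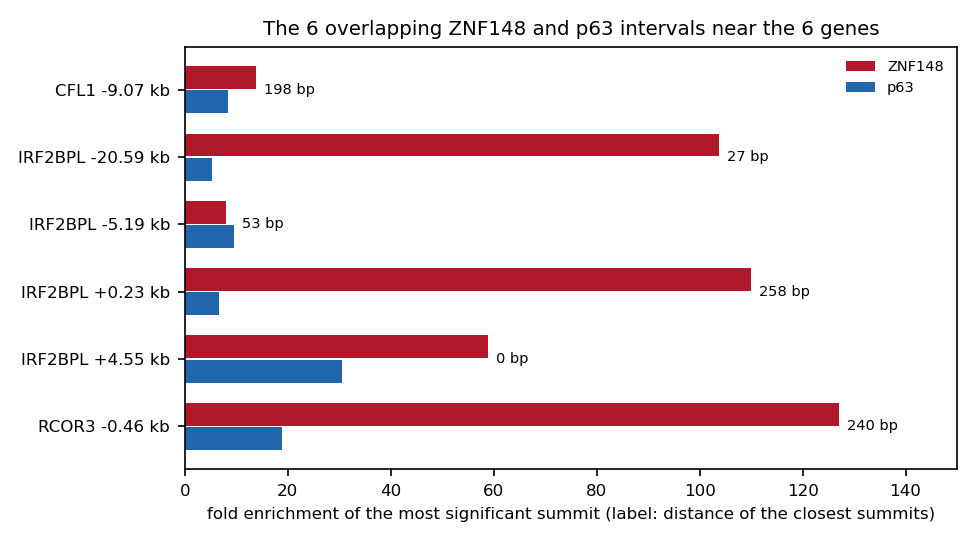
Fold enrichment of the most significant summit of each protein (ZNF148 above p63) in the 6 overlapping interval pairs, named by gene and ZNF148 summit distance. Labels give the distance between the closest summits. ZNF148 is higher in 5 of the 6 pairs. Nothing is read from that count, because the pairs include ZNF148 peaks the genes were selected on and the folds come from different libraries. The summits coincide within 25 bp in 1 pair, at IRF2BPL 4.55 kb. The whole-list share at that distance is not given here.

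The most significant ZNF148 peak of each gene overlapped p63 in 2 of 6 cases, at IRF2BPL and RCOR3. In the 378 most significant ZNF148 intervals, 1% of the list, the share was 36.8%. Those intervals had their nearest p63 summit at a median of 3750 bp (quartiles 17.2 and 24100 bp), and all ZNF148 intervals at 20700 bp (4240 and 56400 bp). The leading peaks of the 6 genes spread over that whole range, from 27 bp at IRF2BPL and 240 bp at RCOR3 to 2934 bp at CFL1, 3827 bp at TBL1XR1, 18549 bp at MORF4L1 and 21304 bp at ZFAT.

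The median p63 fold in the windows was below that of the whole p63 list, but the difference was not tested. The values describe 1 library. The median fold was 9.15 among the 22 p63 intervals (quartiles 7.10 and 15.5) and 13.2 in the whole p63 list (8.39 and 24.5). The interval of the window median, 6.97 to 15.81, contains the whole-list median but treats the 22 p63 intervals as independent. Of these 22, 9 were at IRF2BPL, so no conclusion is drawn from the interval of the median. A fold of 20 or more was reached by 5 of the 24 p63 summits, and by 32.0% of all p63 summits. No interval was computed for that share. These 5 were the pair of summits at IRF2BPL 4.55 and 4.79 kb and 1 each at ZFAT, CFL1 and TBL1XR1, these last at 19.1 to 40.72 kb from the start. The median fold was 12.1 among the 53 ZNF148 intervals (7.37 and 32.5) and 9.83 in the whole ZNF148 list (7.21 and 16.6). The 53 include the peaks the genes were chosen for, so nothing is read from that difference. The 6 p63 intervals that overlapped ZNF148 reached 8.95 on the median, against 9.15 for unpaired ones. In the whole p63 list these medians were 26.2 and 11.7. With 6 pairs, 4 of them from the IRF2BPL stretch, the values near the genes carry little weight. The 6 ZNF148 intervals of the pairs, which include peaks the genes were selected on, reached 81.3, against 11.02 for unpaired ones, and in the whole ZNF148 list the medians were 23.8 and 9.26.

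The 6 starts differed widely in how crowded their surroundings were. IRF2BPL had 25 ZNF148 summits within 50 kb and CFL1 had 20, followed by TBL1XR1 with 6, RCOR3 with 5, MORF4L1 with 4 and ZFAT with 1. Around ZNF148 intervals in general the median was 4 summits, the interval's own included (quartiles 2 and 7), and around the most significant 1% it was also 4 (2 and 11). IRF2BPL had more than 93.1% of the most significant 1% and more than 98.7% of all intervals, and CFL1 more than 88.4% and 96.6%. ZFAT had no second summit, like 17.2% of the most significant 1% and 19.1% of all intervals. A lone peak and a dense stretch thus both occurred at the top of the list. For p63 the numbers were 10 at IRF2BPL, 5 at CFL1, 3 each at TBL1XR1 and RCOR3, 2 at ZFAT and 1 at MORF4L1. The median number of p63 summits was 1 around all ZNF148 intervals (quartiles 0 and 2). Around the most significant 1% it was 2 (1 and 3).

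**Figure D5:**
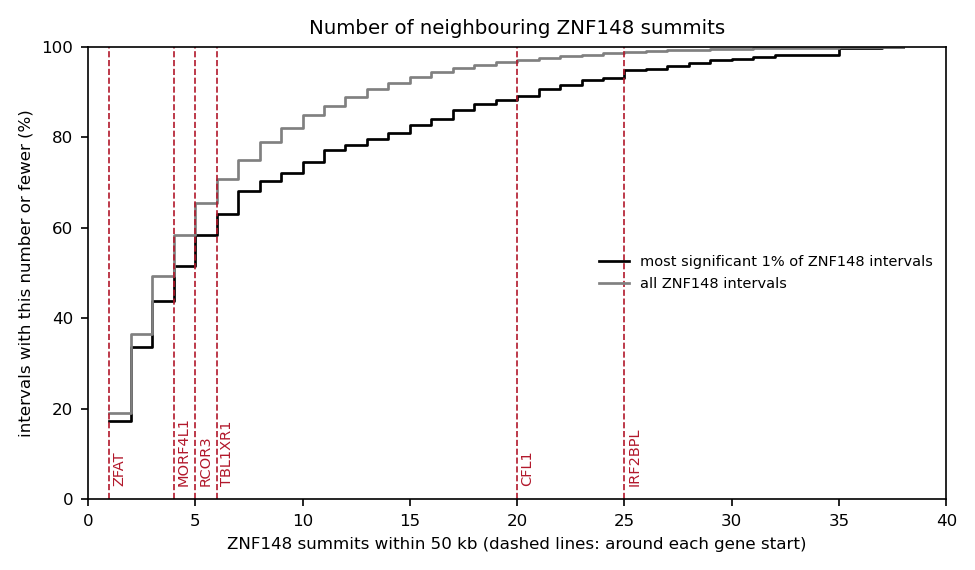
Cumulative percentage of ZNF148 intervals by the number of ZNF148 summits within 50 kb, for the most significant 1% and for all, with dashed lines at the counts around the 6 gene starts. CFL1 and IRF2BPL lie in the upper tail at 20 and 25, and the other 4 genes at 6 or fewer.

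Taken over all genes, summits were split about evenly between the sides of the starts. Leaving out ZFAT, whose strand was not used, and summits within 0.5 kb, 25 ZNF148 summits lay upstream and 27 downstream. For p63 the counts were 11 upstream and 10 downstream. By gene the ZNF148 counts were uneven, with 13 upstream and 7 downstream at CFL1, 9 and 14 at IRF2BPL, and 0 and 3 at MORF4L1.

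Of the 10 most significant ZNF148 peaks, 3 belonged to none of the 6 genes. The ZNF148 peaks of rank 6 (chr3:177077337-177078089, fold 107), 8 (chr9:140210044-140210984, fold 112) and 10 (chr11:70962898-70964052, fold 48.9) lay outside the windows, and 0 of these 3 peaks overlapped a p63 interval. Their nearest p63 summits were 3984, 2004 and 2919 bp away. The 50 kb limit fell in a gap of the ZNF148 list. The farthest ZNF148 summit inside it, at IRF2BPL 47.84 kb, had a fold of 28.3, and the nearest outside, at ZFAT 56.93 kb, had 6.81. For p63 these were IRF2BPL −49.77 kb with 8.82 and IRF2BPL 55.40 kb with 6.27. The p63 summit at −49.77 kb is closer to the limit than the 0.5 kb error of the start. Moving the starts by +500 bp left 23 p63 summits.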

How the data were processed

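ChIP-seq peaks of ZNF148 and ΔNp63α in FaDu cells were analysed, with 1 list per antibody. No peak list of the input library was used here. Per the submitters' processing notes, the tools were MACS2 2.2.6, Bowtie2 2.3.4.3 and SAMtools 1.7, with FastQC 0.11.9 and MultiQC 1.12, and the build was hg19, without their roles or settings. The sources used here do not give the control, the treatment of duplicates or the read filters. The deposited fold enrichment (a ratio) and the deposited −log10 q per summit are the authors' own values. The deposited score, the whole part of 10 times −log10 q, was not used. The lowest −log10 q was 3.02 for ZNF148 and 3.01 for p63, so weaker sites are outside both lists. Read counts are unknown.

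Each row is 1 summit, and rows with the same start and end were counted as 1 interval with its most significant summit. Chromosomes 1 to 22 and X gave 37883 ZNF148 and 21520 p63 intervals. Summits within 50 kb of a start, given to the nearest kb, were kept. The members and lists were chosen with earlier results of these data known. Named were the 6 genes, each leading and nearest ZNF148 summit, ZNF148 summits with a fold of 50 or more, and all p63 summits where a gene had 10 or fewer. The other ZNF148 summits named at CFL1, IRF2BPL, TBL1XR1, RCOR3 and MORF4L1 were chosen after their values were seen. Intervals on shares are exact binomial and cover counting error only. With 1 library per antibody no test was run. One gene planned among the corepressor partners is not reported here. Overlaps were checked with bedtools 2.31.1, and the counting was tested on simulated data. Python 3.11.15, numpy 2.4.6, pandas 2.3.3, scipy 1.17.1 and matplotlib 3.10.9 were used.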

Additional observations from a re-analysis of the deposited data

How the results depend on the processing

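Of 37 recomputed values, 30 stayed within the exact 95% interval of the reported one (counts within 1.5 times), 7 moved outside it and 0 reversed, although counts and shares have no direction to reverse. With a window of 100 kb the p63 summits numbered 43, against 24 reported. The share of ZNF148 intervals overlapping p63, 11.3%, became 3.77% when the overlap had to cover 50% of both intervals and 1.89% with summits within 25 bp. The share of p63 intervals overlapping ZNF148, 27.3%, became 9.09% and 4.55% under the same settings, which are stricter by construction. Whole-list shares under these stricter settings are not given here. Searching the gene's strand alone, promoter entries with the C-rich element fell to 13.5% of all and those with the GC box to 30.6%. Moving the starts by 500 bp left 61 ZNF148 summits and 23 or 24 p63 summits. No paired analysis was possible because each antibody has 1 list. Depth is unknown, so a site absent from a list may be bound below its threshold.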
